A study of Homo sapiens with 2 samples.

Results

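TRAK1 and BICD1 each encode a cargo adaptor of microtubule motors, and both had several TCF4 peaks in a lymphoma cell line. Their peaks were taken from the authors' table as every peak given either gene name, which was 15 of 661 peaks, 9 for TRAK1 on chromosome 3 and 6 for BICD1 on chromosome 12. The genes were selected on their number of peaks, 6 or more, so that number is no finding. Of the 275 genes in the table, 16 had 6 or more peaks. BICD1 stood at this limit with CDCA7L, RGS3, SLC38A1 and SMAD2, each with 6 peaks, and 15 genes with 5 peaks lay just under it.

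The cells were TMD8, an established line of activated B cell-like diffuse large B cell lymphoma without a copy number gain of TCF4. They carried a tetracycline-inducible TCF4 construct and received doxycycline at 60 ng/ml for 24 hours. Of the 2 libraries, 1 came from chromatin precipitated with a TCF4 antibody (ChIP) and 1 from whole cell extract (the input). Induced cells gave both. The question was where TCF4 lay around these genes in induced cells. Every fold below compares 1 ChIP library with 1 input library in 1 cell line, so no value has a replicate error, and binding before induction was not analysed here. The table was chosen through a signature, and TRAK1 and BICD1 were among the 229 of its 275 genes marked Up.

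TCF4 is a basic helix-loop-helix factor of the E protein family, and E proteins bind short E-box sequences (CANNTG). TRAK1 connects mitochondria to kinesin-1 and to dynein through the Miro GTPases, which sit in the outer mitochondrial membrane. BICD1 joins dynein and its partner complex dynactin to vesicles, among them Golgi vesicles that carry the GTPase RAB6. Both proteins are long coiled coils that link a motor to a chosen cargo.

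No TRAK1 or BICD1 peak was in the authors' promoter class, which reached 2000 bp from a transcription start site (TSS). That class held only 36 of all 661 peaks, so the absence is not read as a trait of these genes. RefSeq (GRCh38.p14) gave 3 start windows for TRAK1 and 1 for BICD1, each of 250 bases before and 50 from the start. The peaks are placed on the hg19 build, so their own sequence was not read. The lines below hold the 250 bases before a start, 5′ to 3′ on the plus strand, with E-boxes in capitals. For TRAK1 they are the first window along the chromosome, which was the one that held E-boxes (chr3:42086950-42087199), and the next, whose start is the nearer match to one the authors used (chr3:42091107-42091356). For BICD1 it is the only window (chr12:32106597-32106846). A further line gives the bases from 21 to 50 of the BICD1 window after the start (chr12:32106867-32106896), where its E-box lay.
TRAK1 before the first start: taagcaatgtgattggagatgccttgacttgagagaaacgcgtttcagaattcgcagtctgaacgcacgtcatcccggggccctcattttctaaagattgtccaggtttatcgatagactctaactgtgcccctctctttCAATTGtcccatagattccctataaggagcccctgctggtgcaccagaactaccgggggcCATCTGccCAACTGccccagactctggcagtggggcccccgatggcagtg
TRAK1 before the next start: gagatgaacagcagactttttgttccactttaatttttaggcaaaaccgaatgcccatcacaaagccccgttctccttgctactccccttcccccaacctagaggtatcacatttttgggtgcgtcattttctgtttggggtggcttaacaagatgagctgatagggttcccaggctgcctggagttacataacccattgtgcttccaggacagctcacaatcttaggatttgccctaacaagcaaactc
BICD1 before the start: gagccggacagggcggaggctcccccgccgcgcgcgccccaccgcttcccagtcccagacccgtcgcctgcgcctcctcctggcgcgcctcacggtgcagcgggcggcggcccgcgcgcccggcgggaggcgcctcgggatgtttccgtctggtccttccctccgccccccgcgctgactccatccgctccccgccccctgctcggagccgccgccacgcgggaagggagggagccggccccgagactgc
BICD1 after the start: gcagggccagagggagCAGGTGgagcgaga

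The first TRAK1 window held 3 E-boxes, the capitals above, with first bases at -110, -50 and -42 from the start, and the other 2 TRAK1 windows held none. The BICD1 window held 1, with its first base at position 37 after the start. The motif searched was CANNTG on both strands, and it reads the same way on each. Of 35116 RefSeq windows of this length, 68.7% held it. The form CAGCTG, which also reads the same on both strands, was in 17.9% of windows and in none of these 4. The form found at BICD1, CAGGTG, was in 20.6% of windows on one strand or the other. Each form is a case of the general motif and was counted there too. A match describes letters and does not mark a binding site. The BICD1 window was rich in G and C, at 77.3% with 40 CG pairs, against 55.3% and 12 CG pairs in the first TRAK1 window and a median of 58.7% over all windows.

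TRAK1 had peaks on both sides of the start site that the authors used, over 253 kb of chromosome 3. In the authors' classes 6 lay upstream of the gene (66.7%) and 3 within it, against 23.4% upstream and 52.0% within over the whole table. The 6 peaks of BICD1 were all in the authors' class within the gene, over 248 kb of chromosome 12. These positions were part of why the genes were contrasted and are given as a description.

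The upstream TRAK1 peaks are described first, from the farthest to the nearest. The farthest, chr3:41983501-41983938 (hg19), 149.0 kb from the TSS, held 64 ChIP reads against 15 in the input, or a fold of 5.59 (95% exact Clopper-Pearson interval 3.15 to 10.6). Here and below, the fold is ChIP over input reads after the authors' library scaling, and its interval covers counting error only. The next, chr3:42002426-42003126, 130.1 kb from the TSS, held 144 ChIP reads against 21 in the input, or a fold of 8.98 (5.66 to 14.95). It had the highest fold of the upstream peaks.

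After an interval of 75.03 kb came a pair of peaks 393 bp apart. The first of the pair, chr3:42078159-42078733, 54.2 kb from the TSS, held 119 ChIP reads against 31 in the input, or a fold of 5.03 (3.36 to 7.72). The other, chr3:42079126-42080177, 52.8 kb from the TSS, held 157 ChIP reads against 29 in the input, or a fold of 7.09 (4.75 to 10.9). Their intervals overlapped. The table counts them as 2 peaks.

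Nearer to the gene, chr3:42113426-42114056, 18.9 kb from the TSS, held 92 ChIP reads against 18 in the input, or a fold of 6.69 (4.01 to 11.8). The peak nearest to the TSS, chr3:42130201-42130926 at 2293 bp, held 103 ChIP reads against 30 in the input, or a fold of 4.50 (2.97 to 7.00). It lay just outside the promoter class and had the lowest fold of the 9 TRAK1 peaks. The highest upstream fold was 2.00 times this lowest one (95% exact conditional interval 1.04 to 3.89), a pair picked for its difference.

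The 3 peaks within TRAK1 held the most ChIP reads of the gene. The peak chr3:42159774-42160651, 27.4 kb from the TSS, held 232 ChIP reads against 24 in the input, or a fold of 12.7 (8.30 to 20.2). The next, chr3:42180744-42181652 at 48.2 kb, held 225 ChIP reads against 41 in the input, or a fold of 7.19 (5.13 to 10.3). The last, chr3:42235226-42236628, held 485 ChIP reads against 54 in the input, or a fold of 11.8 (8.87 to 15.9). Its 45.2 kb to the TSS were counted from another TRAK1 transcript. In the authors' classes, ChIP reads in every peak within the gene (225 to 485) exceeded those in every upstream peak (64 to 157). Input reads overlapped (24 to 54 against 15 to 31).

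Summed over peaks, the 6 upstream TRAK1 peaks held 679 ChIP reads against 144 in the input, or a fold of 6.17 (5.15 to 7.44). The 3 within TRAK1 held 942 ChIP reads against 119 in the input, or a fold of 10.4 (8.56 to 12.7). The fold within was 1.68 times that upstream (95% exact conditional interval 1.28 to 2.20, counting error only). Over the whole table the summed folds were close, 7.42 for 344 peaks within a gene and 7.50 for 155 upstream. Peaks of a gene share a locus and a pair of libraries and are not replicates, so no p is given.

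**Figure D1:**
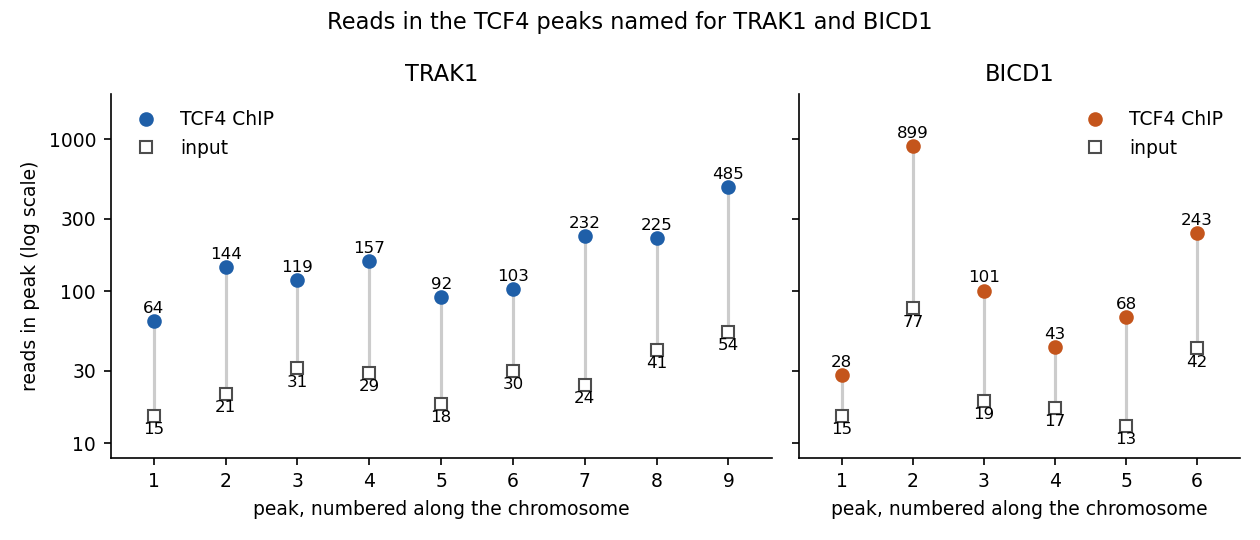
Reads in each peak of TRAK1 (left, 9 peaks) and BICD1 (right, 6 peaks), numbered along the chromosome, with filled points for the ChIP library and open squares for the input on a log axis. In TRAK1 the peaks numbered 7 to 9, within the gene, hold 232, 225 and 485 ChIP reads, and in BICD1 the peak numbered 2 holds 899.

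BICD1 had its enrichment concentrated in 1 peak deep within the gene. That peak, chr12:32405308-32407526 (hg19), 147.2 kb from the TSS, held 899 ChIP reads against 77 in the input, or a fold of 15.3 (12.1 to 19.6). Its ChIP read count was the highest of all 661 peaks, its input count ranked 3 and its width of 2218 bp ranked 5. Its fold ranked 32, so the read count stands out more than the ratio. It held 65.1% of all BICD1 ChIP reads and 42.1% of the input reads. Its interval lay above those of 4 of the other 5 BICD1 peaks, and it overlapped that of the peak at 234.5 kb, which rests on 13 input reads.

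The neighbours of this peak were weaker. A peak 10.35 kb further on, chr12:32417876-32418336, 158.4 kb from the TSS, held 101 ChIP reads against 19 in the input, or a fold of 6.96 (4.24 to 12.04). The peak chr12:32462136-32462503, 202.5 kb from the TSS, held 43 ChIP reads against 17 in the input, or a fold of 3.31 (1.85 to 6.19). The peak chr12:32494011-32494429 at 234.5 kb held 68 ChIP reads against 13 in the input, or a fold of 6.85 (3.75 to 13.5). All 3 rest on fewer than 20 input reads and overlapped each other in their intervals.

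The outermost BICD1 peaks were unlike each other. The one farthest into the gene, chr12:32521826-32522826, lay 262.7 kb from the TSS and 14.2 kb from the end of the transcript used. It held 243 ChIP reads against 42 in the input, or a fold of 7.58 (5.44 to 10.8). The one nearest to the TSS, chr12:32274988-32275192 at 15.3 kb, held 28 ChIP reads against 15 in the input, or a fold of 2.44 (1.26 to 4.92). This was the lowest of the 15 folds and ranked 657 of 661 in the table. Between it and the strongest peak lay 130.1 kb without a BICD1 peak.

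**Figure D2:**
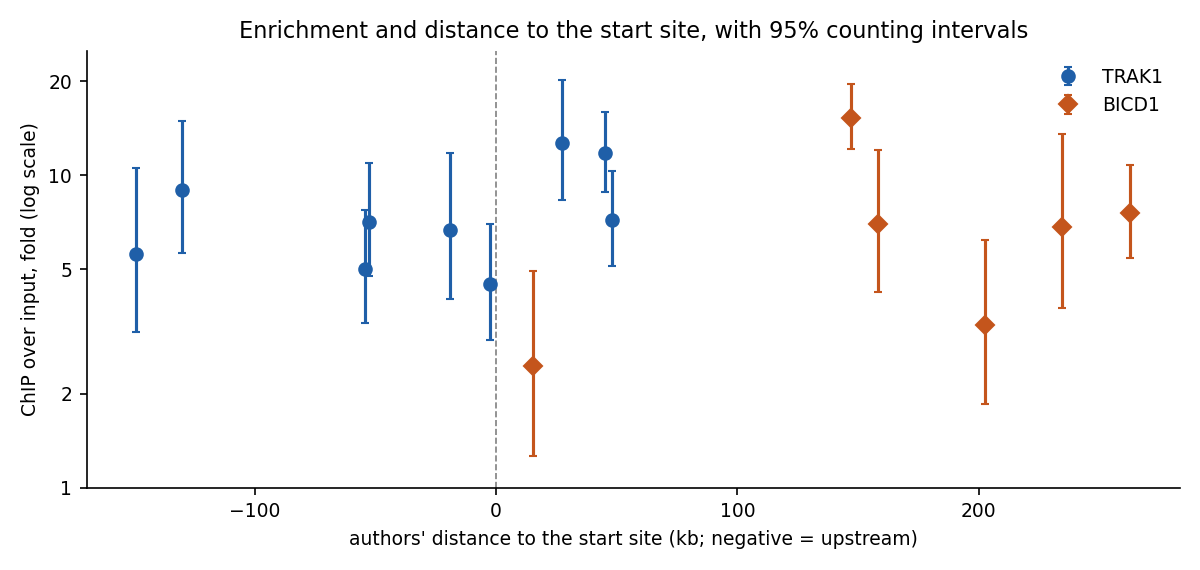
Fold of ChIP over input (log axis) against the authors' distance to the start site in kb, negative upstream, for TRAK1 (circles) and BICD1 (diamonds) with 95% counting intervals of single peaks as bars. TRAK1 peaks lie from 149.0 kb upstream to 48.2 kb downstream of a start, and BICD1 peaks from 15.3 to 262.7 kb downstream, with the highest fold, 15.3, at 147.2 kb. The TRAK1 point at 45.2 kb is counted from a later start than the other TRAK1 points.

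Distance to the TSS differed between the genes in the table, and so did the length of the transcripts used. The longest TRAK1 transcript used spanned 121.4 kb, and the BICD1 ones 276.8 and 226.3 kb. A peak within TRAK1 could thus not lie as far from its TSS as the BICD1 peaks at 147.2 kb and beyond. The part of length in the difference was not tested. The median distance was 48.2 kb for TRAK1, from 2.29 to 149.0 kb, and 180.4 kb for BICD1, from 15.3 to 262.7 kb. The TRAK1 distances mix 2 starts, since the peak at 45.2 kb was counted from the later one. From the earlier start that peak would lie beyond 50000 bp. The 661 peaks, less 7 without a deposited distance, had a median of 39.3 kb. Within 50000 bp of the TSS lay 5 of 9 TRAK1 peaks and 1 of 6 BICD1 peaks, against 383 of all 661 peaks, those 7 included. The TRAK1 count is near the share of the whole table and is not read as a result. The ranges overlapped: the farthest TRAK1 peak, at 149.0 kb, lay farther from its TSS than the BICD1 peaks at 15.3 and 147.2 kb.

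The classes upstream and within depend on the transcript used. The deposited distances of TRAK1 were counted from NM_001265608 for 8 peaks and from NM_001349249 for 1. They place the start of the first transcript at position 42132745 of chromosome 3 (hg19), within 0.5 bp for all 8 peaks, and that of the other 57.97 kb further along, within 15 bp. Counted from the later start alone, 8 of the 9 TRAK1 peaks would lie before it and 1 after it. For BICD1, distances were counted from NR_148725 for 5 peaks and NM_001354189 for 1, and the 2 starts that these imply differed by 53 bp. The centre of the NM_001354189 peak lay 52 bp from that of its paired region, in a direction that was not known. Its start was therefore taken midway, to within 52 bp, so the 53 bp do not show that the 2 starts differ. The BICD1 transcripts did differ in length, 276.8 kb for the one used for 5 peaks and 226.3 kb for the other. Counted from the shorter one alone, the peaks at 234.5 and 262.7 kb would lie after its end.

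The RefSeq gene table of GRCh38.p14 lists 12 curated transcripts of TRAK1 and 35 of BICD1, of which the authors' distances used 2 each. The starts of the second and the third TRAK1 window lie 57.9 kb apart in GRCh38, close to the 57.97 kb between the authors' 2 starts, and the first window starts 4.16 kb before the second. If the second window is the earlier start that the authors used, the peak 2293 bp upstream of it lies after the first start, and so within a transcript that begins there. Counted as within, that peak, with 103 ChIP reads and a fold of 4.50, would make the ChIP reads within and upstream overlap. The ratio of 1.68 between the folds within and upstream was not computed with it there. The other 5 upstream peaks lie farther out, and longer TRAK1 transcripts that could take them in were not analysed here. In the gene order of that assembly the protein-coding neighbours of TRAK1 are ULK4 and CCK, and those of BICD1 are RESF1 and FGD4. Whether any of the peaks, such as the farthest upstream ones, lies within or near the start of a neighbouring gene was not analysed here. The name of a peak is the authors' assignment and does not tie the site to the gene. In the table, no peak named for another gene lay within 500 kb of either set, and the nearest such peaks were 1618.6 kb (EIF1B) and 902.7 kb (OVOS2) away. The table was limited to signature genes, so it cannot show whether peaks of other genes lie nearer.

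TRAK1 peaks were wider than most, and BICD1 peaks ran from narrow to very wide. TRAK1 widths ran from 437 to 1402 bp with a median of 725 bp, and 8 of 9 exceeded the table's median of 492 bp. BICD1 widths ran from 204 to 2218 bp with a median of 439 bp, and 2 of 6 exceeded it. The ranges overlapped, with the narrowest and the widest of the 15 peaks both at BICD1. The apex of the widest peak lay 1520 bp from its start, and its centre lay 537 bp from that of the region it was paired with, against a median of 37 bp over the table.

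ChIP reads per peak had a median of 144 at TRAK1, from 64 to 485, and of 84.5 at BICD1, from 28 to 899, against 73 over the table. Input reads had medians of 29, from 15 to 54, and 18, from 13 to 77, against 17. Of the TRAK1 peaks 8 of 9 exceeded the table's median in ChIP reads and 8 in input reads, and of the BICD1 peaks 3 of 6 in each. Reads add up with width, so the densities are given next.

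**Figure D3:**
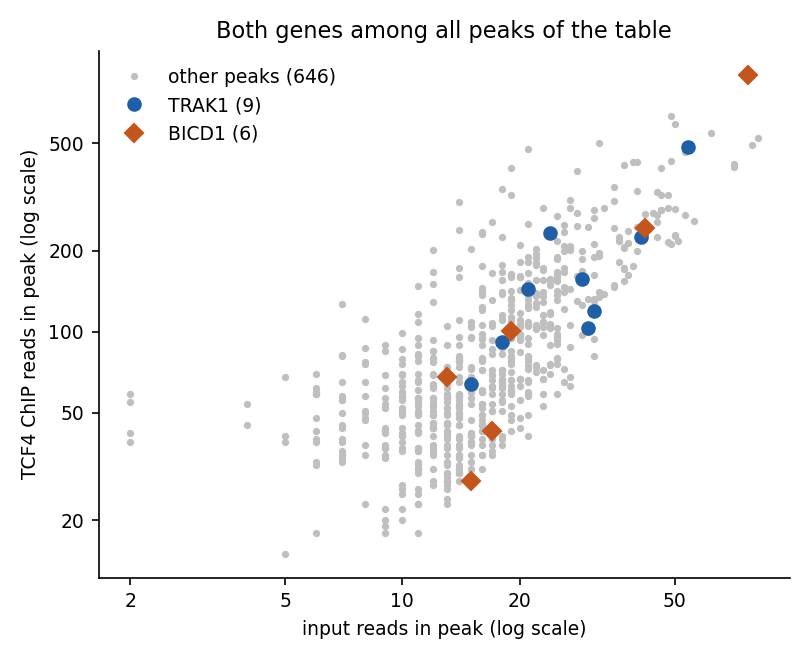
ChIP reads against input reads in each peak, both on log axes, for the 646 other peaks of the table (grey), TRAK1 (circles, 9) and BICD1 (diamonds, 6). The BICD1 peak with 899 ChIP and 77 input reads lies at the top right, above the TRAK1 peak with 485 and 54.

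Read density is the authors' normalized value, reads per peak length times 1 constant per library, in a unit the file headers do not give. ChIP density had a median of 4.72 at TRAK1, from 3.26 to 7.94, and of 4.39 at BICD1, from 2.69 to 9.31, against 3.25 over the table. All 9 TRAK1 peaks and 4 of 6 BICD1 peaks exceeded that median. In the authors' classes the density ran from 5.69 to 7.94 within TRAK1 and from 3.26 to 4.76 upstream, without overlap. The value of 3.26 belonged to the peak at 2293 bp, and the ranges would overlap if that peak were counted as within. The single-peak folds did overlap, from 7.19 to 12.7 within TRAK1 and from 4.50 to 8.98 upstream. The strongest BICD1 peak remained the highest of the 15 per length, at 9.31, and ranked 16 in the table.

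Input density had a median of 0.602 at TRAK1, from 0.480 to 0.947, and of 0.730 at BICD1, from 0.545 to 1.29, against 0.559 over the table. The highest values belonged to the narrowest BICD1 peak, 1.29, and to the first of the TRAK1 pair, 0.947. Narrow peaks had more input per length throughout the table, with a median of 1.10 in 48 peaks of up to 300 bp and 0.495 in 75 peaks above 1000 bp. Compared with peaks of their own width class (up to 300, 600 or 1000 bp, or above), 5 of 6 BICD1 peaks and 6 of 9 TRAK1 peaks had an input density above the class median. All peaks on chromosome 3 had a median input density of 0.518 and those on chromosome 12 of 0.583. Copy number of these regions was not analysed here, and its part in the input reads was not tested.

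**Figure D4:**
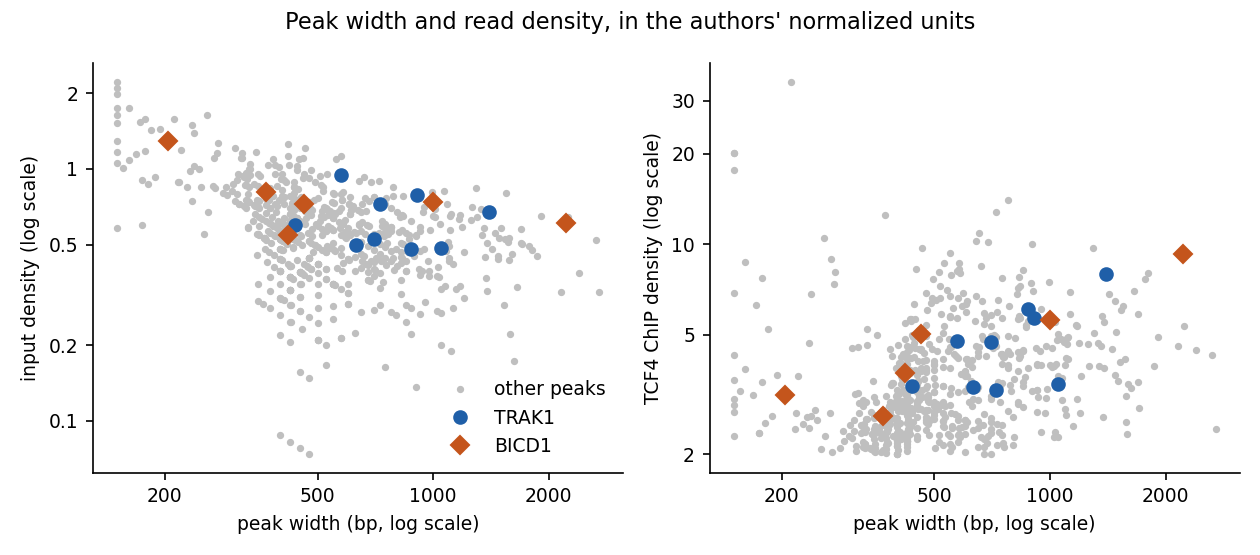
Input density (left) and ChIP density (right) against peak width in bp, all on log axes, for other peaks (grey), TRAK1 (circles) and BICD1 (diamonds). The narrowest BICD1 peak, of 204 bp, has the highest input density of the 15, 1.29, and the widest, of 2218 bp, the highest ChIP density, 9.31.

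Summed over peaks, the order of the genes turned on 1 BICD1 peak. TRAK1 held 1621 ChIP reads against 263 in the input, or a fold of 8.07 (7.08 to 9.23), and BICD1 1382 and 183, a fold of 9.89 (8.47 to 11.6). The ratio of the TRAK1 to the BICD1 fold was 0.816 (95% exact conditional interval 0.663 to 1.003), which includes 1. Leaving out the peak with the most ChIP reads was a setting chosen after the data were seen. BICD1 then had a fold of 5.97 (4.83 to 7.43), and the ratio was 1.35 (1.05 to 1.74). With that peak left out of TRAK1 alone, TRAK1 had 7.12 (6.14 to 8.29), and the ratio was 0.720 (0.578 to 0.896). With it left out of both, the ratio was 1.19 (0.913 to 1.55). This peak held 29.9% of the ChIP reads of TRAK1 and 65.1% of those of BICD1. Its fold was 1.65 times that of the other peaks at TRAK1 (1.19 to 2.31) and 2.56 times at BICD1 (1.85 to 3.56).

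Compared by position, the peaks within TRAK1 and those of BICD1 had summed folds that could not be told apart by counting error, 10.4 against 9.89, with a ratio of 1.05 (0.815 to 1.35). The upstream TRAK1 peaks had 0.624 times the BICD1 fold (0.490 to 0.798). Both ratios rest on the BICD1 peak with 899 reads: without it the peaks within TRAK1 had 1.74 times (1.29 to 2.33) and the upstream ones 1.03 times (0.776 to 1.38) the BICD1 fold. Among single peaks, folds ran over 2.82-fold at TRAK1 and 6.25-fold at BICD1. The peaks with the most reads, at 15.3-fold in BICD1 and 11.8-fold in TRAK1, differed by a ratio of 1.30 (0.884 to 1.90), which includes 1.

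The lower bound of the fold's interval exceeded 2 in all 9 TRAK1 peaks and in 4 of 6 BICD1 peaks, against 85.5% of the table. The normalized log2 ratio was among the 331 highest (50.1% of the table) in 6 TRAK1 and 4 BICD1 peaks. The peaks were called from these same libraries, so neither count is read as a result. The exceptions at the bound of 2 were the BICD1 peaks of 204 and 367 bp, with lower bounds of 1.26 and 1.85.

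The table named 2 of 80 other genes of motor transport (2.5%), against 1.34% of the 20056 protein-coding genes in RefSeq. Of 30 other cargo adaptors and motor linkers 1 was named, of 38 dynein, dynactin and transport kinesin subunits 1, and of 12 cargo and partner proteins 0. Since the table was limited to signature genes, its silence on a gene says nothing of binding there. The named adaptor was BICD2, the paralogue of BICD1 that also links dynein to RAB6 vesicles, marked Up. It had 2 peaks on chromosome 9, both within the gene. The first, chr9:95507352-95508464, 18.98 kb from the TSS, held 237 ChIP reads against 42 in the input, or a fold of 7.39 (5.30 to 10.5). The other, chr9:95525085-95525801, held 156 ChIP reads against 18 in the input, or a fold of 11.3 (6.95 to 19.7). It was in the promoter class, which held 36 of all 661 peaks, at 1579.5 bp from the TSS.

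The named motor subunit was DYNLRB1, a roadblock-type light chain of dynein, also marked Up. Its single peak, chr20:33092974-33093276, 11.1 kb upstream of the TSS, held 33 ChIP reads against 15 in the input, or a fold of 2.88 (1.52 to 5.71). Its interval overlapped that of the BICD1 peak nearest to its TSS. TRAK2, the Miro genes RHOT1 and RHOT2, the kinesin-1 heavy chains and RAB6A were not named.

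Among the 31 genes with 5 or more peaks, those most like TRAK1 in their split over upstream, within and downstream were PITRM1, ALCAM and FAM49A. Likeness was the sum of absolute differences between the shares, divided by 2, which runs from 0 for an equal split to 1. PITRM1, a mitochondrial peptidase gene, differed by 0.133, with 4 of 5 peaks upstream and folds of 4.63 to 24.7. ALCAM, a cell adhesion gene, differed by 0.143, with 4 of 7 upstream and folds of 2.74 to 6.37. FAM49A, marked Down, differed by 0.25, with 4 of 8 upstream and folds of 3.02 to 10.6.

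BICD1 shared its split, with every peak in the authors' class within the gene, with NEDD4L, ARHGAP24 and IGH@, each at a difference of 0. Among genes at that difference, these were the nearest by median normalized log2 ratio. NEDD4L, a ubiquitin ligase gene, had 10 peaks with folds of 3.06 to 15.7 and at most 252 ChIP reads in a peak. ARHGAP24, a GTPase-activating protein gene, had 5 with folds of 3.20 to 8.35 and at most 123 ChIP reads. IGH@, the immunoglobulin heavy chain locus, had 5 with folds of 6.55 to 10.5 and at most 522. None of these 3 could match the 899 ChIP reads of the strongest BICD1 peak, since that was the highest count of all 661 peaks.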

How the data were processed

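Per the labels, 1 TCF4 ChIP library and 1 input library were made from induced TMD8 cells. The submitters' processing notes name BWA, GATK and hg19 without saying what each was used for, and a peak caller was not given in the sources used here. Spike-in chromatin was added per the labels' protocols, and no source says whether the scaling used it. Per the file headers, the authors' table is limited to signature genes. It held 662 lines for 661 distinct peaks. The column lettered IC was taken as the input, the only other library.

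The authors deposited whole-number counts of reads per peak, a log2 ratio, a normalized log2 ratio, a read density (signal) and −log10 p-values, per the file headers. The log2 ratio equalled that of the reads plus 1 in 661 peaks, within 1e-06. The normalized log2 ratio added 0.39, a scaling of 1.31-fold. The −log10 p-values were not used. Positions, TSS distances and classes are the authors', as deposited, and distances are counted from a paired region. Width is end minus start.

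Folds are the ratio of summed reads times the scaling, without a pseudocount, with exact Clopper-Pearson 95% intervals (scipy 1.17.1, Python 3.11.15). Ratios of folds have exact conditional intervals. The intervals assume independent reads, so they are too narrow where PCR copies were counted. Both calculations were tried on simulated reads drawn independently, as the intervals assume, so this checks the arithmetic and not the effect of PCR copies. With 1 library a kind, no test between conditions was made. Depth was known only as reads in peaks, 71988 ChIP and 12661 input.

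The members and gene lists were chosen with earlier results of these data known. Besides every TRAK1 and BICD1 peak, the named genes were the 3 most alike for each among genes with 5 or more peaks, genes of the 3 transport lists that the table names, and genes with a peak within 500 kb. All 80 list members matched a RefSeq symbol (GRCh38.p14). Alternatives changed which peaks enter, the scaling, the summary and the distance window.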

Additional observations from a re-analysis of the deposited data

How the results depend on the processing

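Of 62 alternative values for 15 results, 51 stayed close to the reported one, 9 moved and 2 turned the direction. Many of the 51 could not have changed, as given below, so that count does not measure stability. The ratio of the TRAK1 to the BICD1 fold, 0.816, became 1.19 without the peak with the most ChIP reads of each gene, an alternative added after seeing the data, and 1.03 with medians of single-peak folds, where 1 strong peak counts no more than another. Without that peak the BICD1 fold was 5.97 in place of 9.89. With medians it was 6.91. Without library scaling the folds were 6.16 for TRAK1 and 7.55 for BICD1, lower by construction. Among the 331 peaks with the highest normalized log2 ratio, TRAK1 had a fold of 9.35 and 3 upstream peaks in place of 6, and the median BICD1 width was 730.0 bp in place of 439, since weaker peaks were left out. In a 10000 bp window of the TSS lay 1 TRAK1 and 0 BICD1 peaks, and the share of all peaks in that window was not counted. No TRAK1 or BICD1 peak was 200 bp or less or had under 10 input reads, so those settings changed nothing and their values test nothing. The ratio of the 2 folds without library scaling was also fixed, since the scaling cancels. No paired analysis was possible because each kind of library was made once. Depth limits the BICD1 peaks with 13 to 19 input reads.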
